A study of Mus musculus with 30 samples.

Results

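The cells described here are T cells from tumours of MOC1, a mouse oral squamous carcinoma line, after antibody against PD-1 or an isotype control antibody. A barcode was kept if it had 300 genes or more and if mitochondrial UMIs were 10% or less of its total. It then had to be positive for 1 hashtag and to hold a UMI of Cd3e, Cd3d or Cd3g, which make the CD3 chains. That left 3399 cells of the anti-PD-1 library and 4292 cells of the isotype library, 7691 of the 29768 single-cell RNA barcodes of the study. The study set tumours that respond to checkpoint antibodies beside resistant ones, in MOC1, MOC1E1 and MOC22. The tumours grew in C57BL/6J mice, which were given the antibodies by intraperitoneal injection on days 3, 6 and 9 after the tumour cells. The labels call the RNA material T cells. Each treatment is 1 library, cut by 4 hashtag antibodies (H1 to H4) into 4 sums of counts, and treatment and library cannot be told apart. The labels do not say what a hashtag marks. The p-values therefore measure the spread between the hashtags of a library and nothing wider.

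PD-1, the product of Pdcd1, is an inhibitory receptor that T cells put on their surface after their antigen receptor has been engaged. Its ligands on tumour and myeloid cells dampen that signal, and antibodies that block the receptor are used as checkpoint therapy. CD8 T cells kill target cells with perforin and granzymes, CD4 T cells mostly act through cytokines, and regulatory T cells, marked by the transcription factor Foxp3, restrain both.

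The kept cells had the identity the labels give: 97.0% of them held a Cd3 transcript in either library. The hashtag sums held 668 to 1023 cells in the anti-PD-1 library and 599 to 1465 in the isotype library, with 3951652 to 6981300 and 4209374 to 8425743 gene UMIs. The median cell had 5237 and 4598 UMIs. The libraries shared 35 barcodes. Cells with more than 1 hashtag, 151 in the anti-PD-1 library and 174 in the isotype library, were left out, while doublets within a hashtag could not be seen. RNA of other cell types was low but unequal: dendritic cell markers summed to 12.2 to 19.4 CPM (a gene's UMIs scaled to a common total, here without TMM factors) in the anti-PD-1 hashtags, against 35.7 to 62.2 CPM in the isotype hashtags. Macrophage and monocyte markers summed to 16.5 to 46.3 CPM and 19.96 to 114 CPM in the same order. B and plasma cell markers summed to 141 to 222 CPM and 216 to 259 CPM. Of these 9 markers, 4 were at 0 in all 8 sums, among them Ms4a1, Pax5 and Mzb1, while Ighm was called lower in the CD8 class described below. The carcinoma markers spanned 123 to 253 CPM and 112 to 382 CPM. On the first principal component of the 8 sums, which held 45.1% of the variance, the anti-PD-1 hashtags lay between -30.9 and -11.4 and the isotype hashtags between 17.1 and 23.6.

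More of the anti-PD-1 T cells carried CD8 transcripts and fewer carried Foxp3. Cells were classed by their own transcripts after each had been thinned to 2000 UMIs: CD8 class (Cd8a or Cd8b1, without Cd4 and Foxp3), Foxp3 class (Foxp3, without Cd8a and Cd8b1), CD4 class (Cd4, without the others), Trdc class, a mixed class (CD8 genes with Cd4 or Foxp3) and the rest. For the gene comparisons and the clones of a class, cells were classed by their full counts, without thinning, so those numbers of cells are other than the ones behind the shares. The CD8 class held 49.0, 50.5, 40.9 and 29.2% of the T cells of anti-PD-1 hashtags H1 to H4, against 20, 19.3, 18.9 and 21.9% in isotype hashtags H1 to H4. The lowest anti-PD-1 hashtag, H4, was above every isotype hashtag, and the anti-PD-1 hashtags spread more widely. The means were 42.4 ± 9.76% and 20.02 ± 1.34% (SD, n = 4 hashtags each; two-sided exact permutation test, p = 0.0286, the smallest p that 4 against 4 allows, 0.0571 after adjustment over 6 classes).

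The Foxp3 class held 7.38, 7.89, 9.34 and 16.2% in the anti-PD-1 hashtags, against 23.9, 22.2, 23.9 and 18.9% in the isotype hashtags. Here too H4 of the anti-PD-1 library lay nearest to the isotype hashtags without reaching them. The means were 10.2 ± 4.06% and 22.2 ± 2.34% (SD, n = 4 each; exact permutation p = 0.0286, adjusted 0.0571). Where a class needed at least 2 UMIs of its gene, the Foxp3 class held 5.62 ± 2.48% and 11.4 ± 1.71%, a difference of -5.82 percentage points beside -12.04, and the CD8 class 38.9 ± 9.31% and 17.3 ± 1.47%. The CD4 class did not separate the treatments, with 14.9 ± 3.34% and 14.3 ± 1.02% (exact permutation p = 0.857), nor did the Trdc class, the carriers of the delta chain of gamma-delta T cells, with 1.53 ± 0.638% and 1.58 ± 0.124% (exact permutation p = 0.943). Cells with none of these transcripts made up 27.04 ± 1.98% and 37.0 ± 2.28% (exact permutation p = 0.0286, adjusted 0.0571). The shares of a hashtag add up to the whole, so a larger CD8 share leaves less for the other classes. The tests of the classes are therefore not independent, and shares among the cells outside the CD8 class were not tested. Without thinning, the CD8 class was 40.2 ± 9.39% and 18.3 ± 1.22%, and the Foxp3 class 12.7 ± 4.504% and 27.6 ± 3.71%. The purity of such classes is limited. In cells thinned as for the shares, Cd8b1 was seen in 16 of 136 and 19 of 294 cells positive for Foxp3 and Cd4. Foxp3 was seen in 26 of 1033 and 46 of 488 cells positive for Cd8a and Cd8b1, in the anti-PD-1 and isotype libraries. Before thinning these cells had medians of 4579 and 4894.5 UMIs, and of 7188 and 5990.5 UMIs. Such rates do not measure the purity of the classes from full counts. The mixed class held 3.96 ± 1.06% and 4.82 ± 0.854% with thinning, and 9.30 ± 2.69% and 11.5 ± 1.74% without it.

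**Figure D1:**
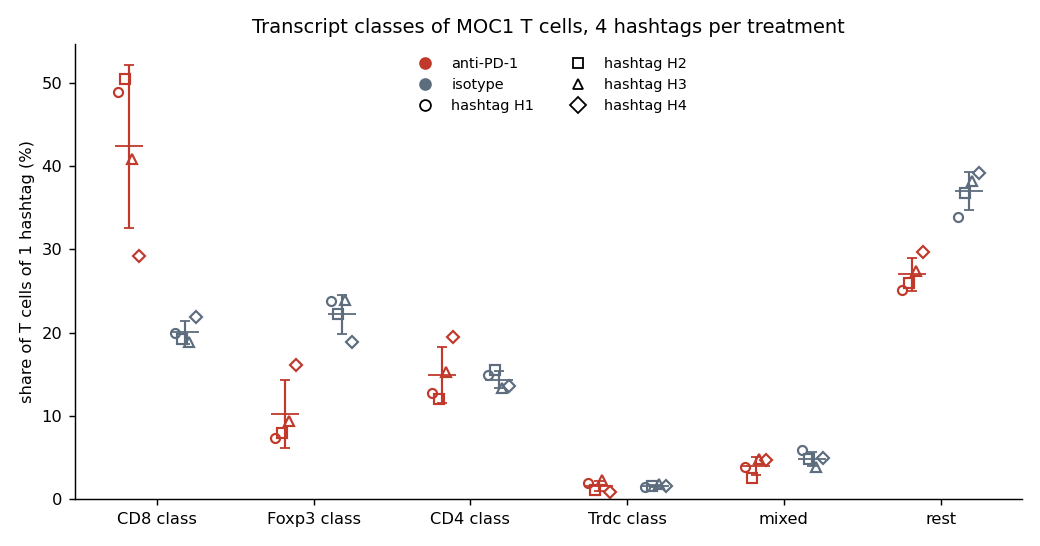
Share of T cells in 6 transcript classes (x axis) as percent of the T cells of each hashtag (y axis), cells thinned to 2000 UMIs. Each symbol is 1 hashtag, bars are mean and SD of 4 hashtags, anti-PD-1 in red and isotype in grey. CD8 class shares of 29.2 to 50.5% in the anti-PD-1 library lie above the 18.9 to 21.9% of the isotype library, and Foxp3 class shares lie below.

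In the sums over all T cells, transcripts of killing, of inhibitory receptors and of inflammatory chemokines were higher in the anti-PD-1 library. Many of those of regulatory T cells, of gamma-delta and type 17 cells and of MHC class II were lower. Of 10249 genes tested with edgeR, 2273 (22.2%) passed an adjusted p of 0.05, 1134 higher and 1139 lower (11.1% each). These shares are the background for the counts of each gene list in the sums of all T cells. With library totals in place of TMM normalization, 689 were higher and 1578 lower, so the balance of the directions rests on the scaling. In such a sum, more cells of a class and more RNA per cell cannot be told apart, and the classes are given separately after it. CPM values are given for hashtags H1 to H4 in order, after TMM normalization.

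Prf1 encodes perforin, the pore-forming protein of killer cells, and had the largest rise among called genes that averaged at least 20 CPM and did not overlap between the treatments, the genes that are called largest below. It stood at 249, 184, 138 and 159 CPM in the anti-PD-1 hashtags, against 12.5, 14.9, 13.5 and 22.6 CPM in the isotype hashtags. Its log2 fold change was 3.49 ± 0.21 (SE), adjusted p = 2.1e-05 in edgeR. Separation of the hashtags was a condition for the largest genes, here and in the classes, so for them it is no further support. How many of all tested genes separate was not counted. Of the 4080 and 439 Prf1 UMIs, 83.3% and 47.6% lay in the CD8 class. At full counts, 817 and 272 of all T cells held a Prf1 UMI. In cells thinned as for the shares, 338 of 1033 and 33 of 488 positive for Cd8a and Cd8b1 held a Prf1 UMI. Of thinned cells positive for Foxp3 and Cd4 and without CD8 transcripts, 4 of 116 and 3 of 269 held one. The latter cells had a median of 4537 and 4813 UMIs before thinning.

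Of the 21 tested cytotoxic effector genes, 13 were called higher and 1 lower (median log2 fold change 0.75, against -0.00 over all genes tested). Ifng, the cytokine interferon gamma, stood at 157, 186, 251 and 177 CPM in the anti-PD-1 hashtags, against 44.3, 56.7, 67.4 and 63.96 CPM in the isotype hashtags, a log2 fold change of 1.72 ± 0.15 (SE), adjusted p = 9.9e-05 in edgeR. The groups did not overlap. Nkg7, a granule membrane protein, rose by 1.58 ± 0.16 and Tbx21, the transcription factor T-bet, by 0.91 ± 0.10 on the log2 scale (SE). Klrg1, a lectin-like receptor that is also found on effector regulatory T cells, was the called fall, with a log2 fold change of -1.51 ± 0.29, and 58.7% of its isotype UMIs lay in the Foxp3 class. Gzma, granzyme A, at 262, 583, 689 and 186 CPM in the anti-PD-1 hashtags, against 271, 105, 57.01 and 53.7 CPM in the isotype hashtags, overlapped between the groups and was called (log2 fold change 1.84, adjusted p = 0.0305); it lost the call without any one of anti-PD-1 H2 or H3 or isotype H2, H3 or H4 (adjusted p 0.0707 to 0.0857), and 10 cells held 47.9% and 35.5% of its UMIs.

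Killer lectin-like receptors, inhibitory and activating receptors shared with NK cells, were called higher in 5 and lower in 2 of 16 tested genes. Klrd1 (CD94) stood at 456, 391, 339.6 and 342 CPM in the anti-PD-1 hashtags, against 90.2, 114, 103 and 115 CPM in the isotype hashtags, and its partner Klrc1 (NKG2A) at 401, 298, 225 and 223 CPM in the anti-PD-1 hashtags, against 57.96, 70.8, 62.9 and 73.98 CPM in the isotype hashtags. Neither overlapped, with log2 fold changes of 1.86 ± 0.11 and 2.10 ± 0.18. Klre1 and Klrk1 (NKG2D) rose by 1.91 and 0.98, and Klrb1c (NK1.1), a marker of NK and NKT cells, fell by 0.81 on the log2 scale. The NK marker list as a whole, which shares Gzma and Klre1 with T cells, summed to 400.1 to 908 CPM and 292 to 428 CPM, and its part in these rises was not tested.

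The checkpoint list joins inhibitory receptors with other activation-linked genes, such as Tox, Nr4a2, Rgs16 and the ectoenzyme genes Cd38 and Entpd1. Of its 22 tested genes, 13 were called higher and 1 lower (median log2 fold change 0.68). Pdcd1, the gene of the antibody's target, stood at 831, 654, 570.4 and 559 CPM in the anti-PD-1 hashtags, against 248, 303, 311 and 303 CPM in the isotype hashtags. All anti-PD-1 hashtags exceeded all isotype hashtags, with a log2 fold change of 1.17 ± 0.12 (SE), adjusted p = 2.5e-04 in edgeR. The antibody acts on the protein, so the transcript checks no label. Lag3, a receptor for MHC class II, stood at 828, 547, 642 and 622 CPM in the anti-PD-1 hashtags, against 138, 213, 219.8 and 249 CPM in the isotype hashtags, a log2 fold change of 1.68 ± 0.17 (SE), adjusted p = 1.9e-04, again with no overlap. Havcr2 (TIM-3) and the ectoenzyme gene Cd38 rose by 0.78 ± 0.06 and 1.28 ± 0.14 on the log2 scale. Nt5e, the ectoenzyme CD73, was the 1 called fall at -0.57.

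Chemokines were called higher in 4 and lower in 1 of 9 tested genes. Ccl4, an inflammatory chemokine, stood at 572, 662, 879 and 489 CPM in the anti-PD-1 hashtags, against 151, 159, 139.9 and 223 CPM in the isotype hashtags, and Ccl3, a related chemokine, at 187, 156, 312 and 243 CPM in the anti-PD-1 hashtags, against 51.6, 60.7, 29.6 and 69.995 CPM in the isotype hashtags. Their log2 fold changes were 1.94 ± 0.18 and 2.05 ± 0.25, with no overlap. A few cells held much of both: 10 cells held 34.9% and 33.4% of Ccl4 UMIs and 31.6% and 42.7% of Ccl3 UMIs. Ccl5 rose by 1.33 ± 0.25 and Cxcl16 fell by 2.28 on the log2 scale. Cxcl16 rests on 29 anti-PD-1 and 180 isotype UMIs, of which 10 cells held 48.3% and 66.1%, and without the cells that carried myeloid markers, described below, it had too few counts to be tested. Among 25 chemokine and homing receptors, 4 were called higher and 11 lower. Cxcr6, the receptor of the CXCL16 ligand, rose by 1.46 ± 0.11 and Cx3cr1 by 0.79 ± 0.13, while Ccr4, a receptor of type 2 and regulatory T cells, fell by 1.12 on the log2 scale.

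Among other large rises, Cd8a stood at 896, 677, 582 and 497 CPM in the anti-PD-1 hashtags, against 159, 182, 176 and 179 CPM in the isotype hashtags (1.93) and Cd8b1 rose by 1.46 on the log2 scale; both genes also define the CD8 class. Adgrg1 (GPR56), an adhesion receptor of cytotoxic lymphocytes, rose by 2.38 ± 0.33. Ifitm1, an interferon-induced membrane protein, rose by 1.78 ± 0.18, and Nrgn, which encodes the calmodulin-binding protein neurogranin, by 1.69 ± 0.19. Among costimulatory receptors and TNF ligands, 5 of 22 were higher and 8 lower, with Slamf7 at 1.28 ± 0.09 and the death receptor gene Tnfrsf25 at -1.22 ± 0.17.

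**Figure D2:**
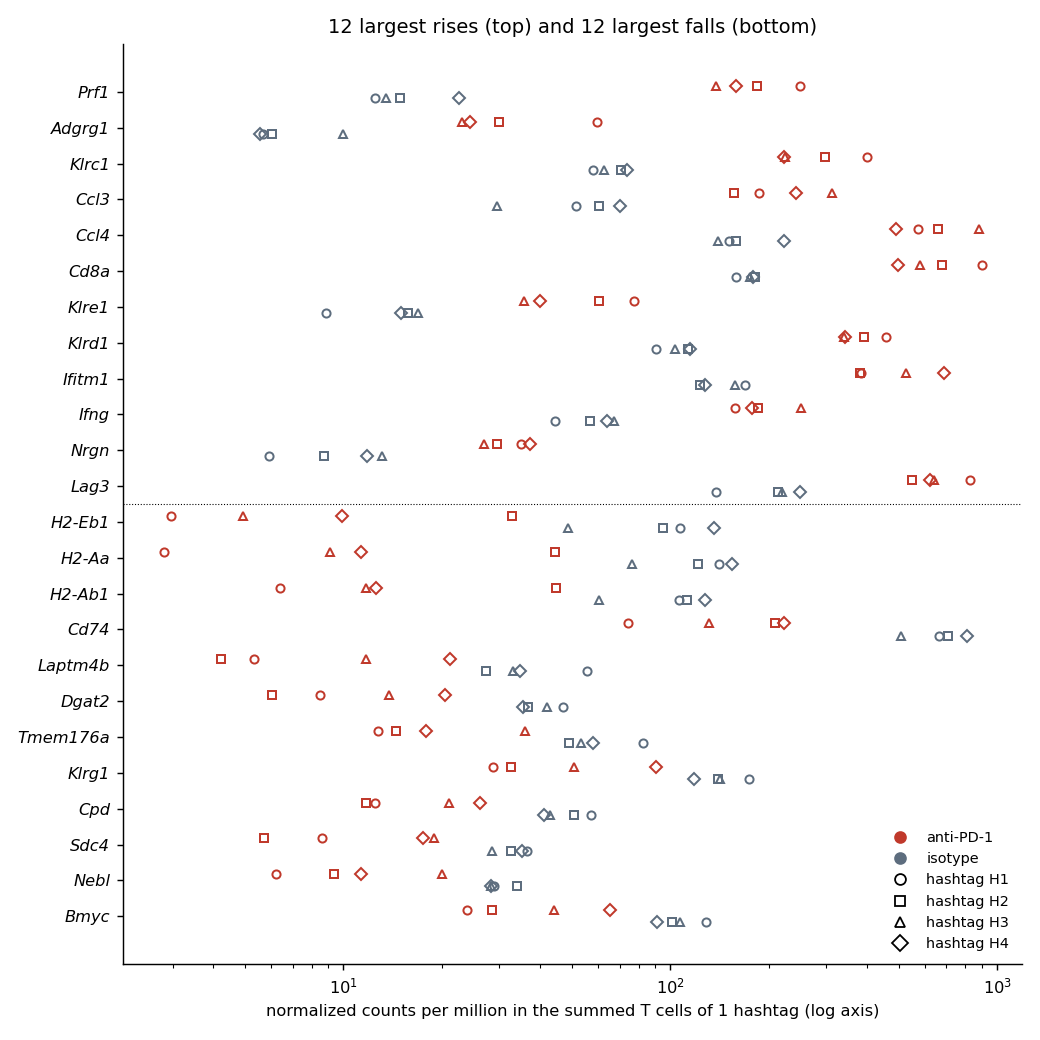
Normalized CPM (x axis, log scale) of the 12 largest rises and the 12 largest falls among called genes, summed over the T cells of each hashtag. Each symbol is 1 hashtag, anti-PD-1 in red above isotype in grey. Prf1 lies at 138 to 249 CPM in anti-PD-1 and 12.5 to 22.6 CPM in isotype hashtags.

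Lower in the summed T cells were many genes of regulatory T cells, of gamma-delta and type 17 cells and of MHC class II. Of 22 tested regulatory T cell genes, 12 were called lower and 1 (Nrp1, a coreceptor) higher, with a median log2 fold change of -0.50. Foxp3 stood at 81.9, 82.9, 97.1 and 182 CPM in the anti-PD-1 hashtags, against 269.6, 222, 255 and 208 CPM in the isotype hashtags, a log2 fold change of -1.10 ± 0.22 (SE), adjusted p = 0.00595 in edgeR, and Il2ra, the alpha chain of the interleukin-2 receptor, at 134, 151, 194 and 304 CPM in the anti-PD-1 hashtags, against 570.3, 438, 456 and 404 CPM in the isotype hashtags, a log2 fold change of -1.25 ± 0.22 (SE), adjusted p = 0.00307. In both genes anti-PD-1 hashtag H4 was the highest of its library, and no hashtag overlapped. Ikzf2 (Helios), Lrrc32 (GARP) and Il1rl1 (the interleukin-33 receptor) had log2 fold changes of -0.70, -0.70 and -1.27. With each cell thinned to 2000 UMIs, Lrrc32 lost its call (-0.34, adjusted p = 0.143). Laptm4b, Dgat2, Cpd, Sdc4, Nebl and Bmyc, also among the 12 largest falls, had log2 fold changes of -1.41 to -1.83. Of the isotype UMIs of Laptm4b and Dgat2, 59.5% and 59.1% lay in the Foxp3 class.

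Genes of gamma-delta and type 17 T cells were called lower in 13 and higher in 1 (Trgv2) of 21 tested genes, with a median of -1.37. The other 7 did not pass, among them the cytokine genes Il17a, Il17f and Il22. Il23r, the interleukin-23 receptor, held 16 UMIs in the anti-PD-1 T cells and 130 in the isotype T cells, with a log2 fold change of -2.72 ± 0.30 (SE), adjusted p = 3.1e-04 in edgeR. Il1r1 fell by 1.54 and Tmem176a by 1.63 on the log2 scale. Tcrg-C1, whose reads may be shared with the near-identical Tcrg-C2, fell by 1.64, while Trdc did not pass (log2 fold change -0.37 ± 0.19, adjusted p = 0.178).

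The 4 largest falls, by the same conditions, were MHC class II genes, which present antigen to CD4 T cells and which mouse T cells make little of: H2-Eb1, H2-Aa, H2-Ab1 and the invariant chain Cd74. H2-Aa stood at 2.82, 44.3, 9.09 and 11.3 CPM in the anti-PD-1 hashtags, against 141, 122, 76.4 and 154 CPM in the isotype hashtags, with anti-PD-1 H2 the highest of its library and still below every isotype hashtag. These counts sat in few cells. The 25 of 3399 anti-PD-1 and 89 of 4292 isotype T cells with at least 2 UMIs of 17 macrophage and dendritic cell markers held 849 of 1029 and 8302 of 8802 UMIs of H2-Aa, H2-Ab1 and H2-Eb1. Those cells had a median of 6303 and 10543 UMIs, above the library medians. Without them, an alternative added after seeing the data, the log2 fold change of H2-Aa was -1.58 (adjusted p = 0.0335) beside -2.88 with them, that of H2-Eb1 -1.75 beside -2.93, that of Cd74 -1.04 beside -2.08, and H2-Ab1 lost its call (-0.57, adjusted p = 0.198, beside -2.45). The macrophage factor Spi1, the receptor Csf1r and the dendritic cell lectin Cd209a fell with them, with log2 fold changes of -3.09, -2.58 and -4.03 and with 22, 9 and 26 UMIs in the anti-PD-1 T cells, against 245, 70 and 543 in the isotype T cells. Without the cells with myeloid markers these 3 genes had too few counts to be tested, and DESeq2's Wald test did not call Cd209a (adjusted p = 0.119). All 26 anti-PD-1 UMIs of Cd209a came from 2 cells of H2, and the gene was at 0 in the other anti-PD-1 hashtags, so its fold rests on that hashtag.

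Genes of energy metabolism were higher by small steps. Of 20 glycolysis and hypoxia genes, 12 were called higher and 2 lower (median log2 fold change 0.29), and of 32 nuclear genes of the respiratory chain and ATP synthase, 22 were called higher and none lower (median 0.20). Gapdh stood at 5353, 5083, 5000 and 5542 CPM in the anti-PD-1 hashtags, against 3702, 3439, 3562 and 3294 CPM in the isotype hashtags, with no overlap and a log2 fold change of 0.58 ± 0.05. Pgk1, Eno1 and Mif rose by 0.58, 0.42 and 0.31, and Cox8a and Cox5a, subunits of cytochrome c oxidase, by 0.34 and 0.34. With library totals the respiratory genes called higher were 13 rather than 22, and the glycolysis genes 10.

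Among genes of the resting state and of recent receptor signalling, most calls were falls, and many genes did not pass. In the naive and memory list, 7 of 20 genes were called lower and none higher (median -0.28), led by Il7r, the interleukin-7 receptor, at 179, 197, 215 and 178 CPM in the anti-PD-1 hashtags, against 366, 346, 375 and 406 CPM in the isotype hashtags, a log2 fold change of -0.96 ± 0.07 (SE), adjusted p = 4.0e-05. Lef1, Foxp1 and Klf2, transcription factors of resting T cells, had log2 fold changes of -0.45, -0.34 and -0.42. With thinned cells Lef1 lost its call (-0.18, adjusted p = 0.349). Klf2 lost its call without anti-PD-1 H1 or H2 or isotype H2, H3 or H4 (adjusted p 0.0642 to 0.0882). Of 20 factors induced by T cell receptor signals, 10 were called lower and 2 higher. Fos, Egr2 and Egr3 had log2 fold changes of -0.51, -0.66 and -0.999, and Nr4a2 rose by 0.96 ± 0.12. With thinned cells Egr2 lost its call (adjusted p = 0.0654) and Egr3 had too few counts to be tested. Fos and other such genes also respond to tissue dissociation. In the stress list, 2 of 14 genes were higher (Hspd1 and Dnaja1) and 1 lower (Zfp36, at -0.59), beside 22.2% called over all genes tested. With 1 hashtag left out, Dnaja1 kept its call only without anti-PD-1 H1 or H2 (otherwise adjusted p 0.0521 to 0.0972). It also lost the call with library totals (adjusted p = 0.0898).

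Cell cycle genes were called higher in 4 of 28 (Mcm6, Cenpa, Pcna and Mcm4, log2 fold changes 0.23 to 0.47), near the 11.1% called higher over all genes tested. Pcna and Mcm4 lost the call without anti-PD-1 H1 or H2 or isotype H1, H2 or H4, Pcna also without anti-PD-1 H3 and Mcm4 also without anti-PD-1 H4 (adjusted p 0.0515 to 0.118). Both also lost it with library totals (adjusted p 0.122 and 0.104) and with thinned cells (0.104 and 0.15), and Mcm4 with hashtag name as a block (0.0619). The type I interferon response held no called rise and 2 called falls among 35 genes, beside 11.1% called in each direction over all genes tested. The falls were Slfn5 at -0.84 and Slfn8 at -0.49. Slfn8 lost the call without anti-PD-1 H1 or H3 or isotype H1, H2 or H4 (edgeR adjusted p 0.0548 to 0.0761) and with thinned cells (0.0892). Helper cytokines and lineage factors were called higher in 8 and lower in 4 of 22, with Batf at 0.39 beside Ifng and Tbx21 above. GIMAP GTPases, small GTPases of lymphocyte survival, had 1 call in 8 genes, Gimap7 at 0.51 ± 0.09, beside 22.2% called over all genes tested. Cd4 itself did not pass (log2 fold change -0.16 ± 0.16, adjusted p = 0.525).

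**Figure D3:**
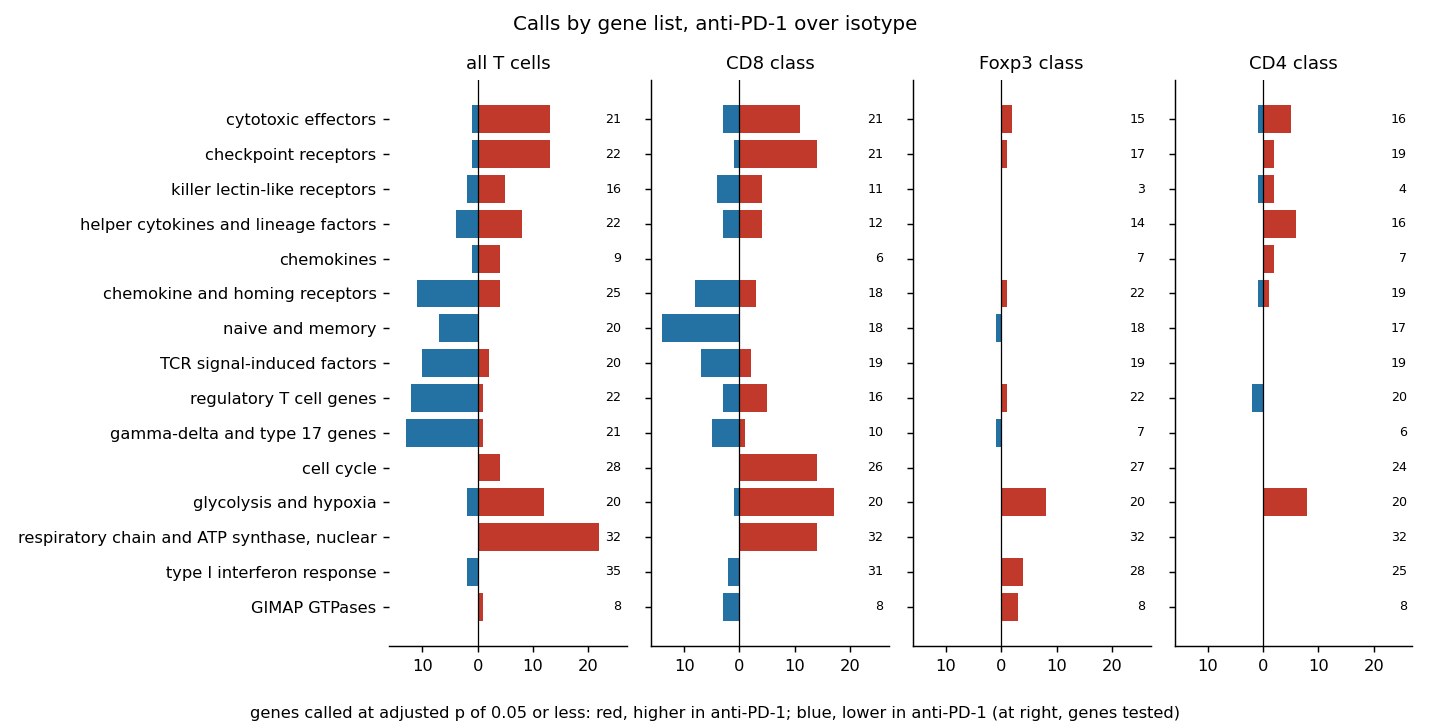
Number of genes called at an adjusted p of 0.05 (x axis) in 15 gene lists (rows), in the sums of all T cells and of 3 transcript classes. Red bars to the right are genes higher in anti-PD-1, blue bars to the left genes lower in anti-PD-1, and the figure at the right of each row is the number tested. The CD8 class holds 14 lower genes of the naive and memory list and 14 higher genes of the cell cycle list, and glycolysis genes are higher in all 4 columns.

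The CD8 class was compared next, to show which differences are present within cells of 1 class. In anti-PD-1 CD8 class cells, genes of killing, inhibitory receptors, cell division and glycolysis were higher and genes of the naive and memory state were lower. The class held 236 to 477 cells per anti-PD-1 hashtag and 104 to 293 per isotype hashtag. Of 8031 genes tested, 1554 (19.4%) passed, 790 higher (9.84%) and 764 lower (9.51%). With library totals, 1020 were higher and 600 lower.

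Prf1 stood at 366, 267, 247 and 384 CPM in the anti-PD-1 hashtags, against 24.4, 46.6, 21.8 and 64.3 CPM in the isotype hashtags in this class, a log2 fold change of 2.88 ± 0.24 (SE), adjusted p = 5.1e-06 in edgeR, again the largest rise. Gzmb, granzyme B, stood at 1438, 1298, 799.8 and 771 CPM in the anti-PD-1 hashtags, against 298, 301, 143 and 236 CPM in the isotype hashtags, a log2 fold change of 2.14 ± 0.23 (SE), adjusted p = 2.8e-05. For both genes the lowest anti-PD-1 hashtag lay above the highest isotype hashtag. Gzma rose by 2.15 ± 0.37, or by 1.38 with thinned cells, with isotype H2 far above the other isotype hashtags at 313 CPM. Mt1, a metal-binding metallothionein, rose by 2.41 ± 0.49, and the transcripts named Gm156 and AC163354.1 by 2.56 ± 0.50 and 2.46 ± 0.28. Of the 61 Gm156 UMIs in the isotype library, 60 came from 10 cells, and DESeq2's Wald test did not call the gene (adjusted p = 0.0812). The cytotoxic list held 11 called rises and 3 called falls (Klrg1, Lamp1 and Tnf) among 21 tested genes, with Nkg7 at 0.83 and Cst7, the protease inhibitor cystatin F, at 0.74.

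The checkpoint list gave 14 called rises and 1 called fall (Nt5e) among 21 genes. Its median log2 fold change was 1.09, against -0.01 over all genes tested. Besides inhibitory receptors, the rises included Entpd1, Cd38, Nr4a2, Rgs16, Tox, Tox2 and Cd200. Lag3 stood at 971, 619.6, 692 and 777 CPM in the anti-PD-1 hashtags, against 120.4, 187, 196 and 199.6 CPM in the isotype hashtags, a log2 fold change of 2.10 ± 0.15 (SE), adjusted p = 1.9e-06 in edgeR. Havcr2 stood at 98.5, 92.2, 81.8 and 98.9 CPM in the anti-PD-1 hashtags, against 29.3, 31.3, 10.9 and 27.8 CPM in the isotype hashtags, a log2 fold change of 1.87 ± 0.18 (SE), adjusted p = 1.6e-05. Neither gene overlapped between the treatments. Entpd1 (CD39), Ctla4 and Pdcd1 rose by 1.69 ± 0.18, 1.09 ± 0.10 and 1.21 ± 0.13.

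The naive and memory genes gave 14 called falls and no called rise among 18, with a median of -1.07. Il7r stood at 82.7, 102, 141 and 94.4 CPM in the anti-PD-1 hashtags, against 296, 237, 291 and 347 CPM in the isotype hashtags, and Tcf7 (TCF-1), a factor of memory and stem-like T cells, at 25.7, 58.4, 61.02 and 58.2 CPM in the anti-PD-1 hashtags, against 129, 124, 134 and 121 CPM in the isotype hashtags. Anti-PD-1 H1 was the lowest hashtag for both, and neither overlapped (log2 fold changes -1.49 ± 0.15 and -1.36 ± 0.21). Bcl2, a survival factor, and Foxp1 fell by 1.32 and 0.84 on the log2 scale. Id3, a repressor of E proteins in memory cells, fell by 1.75, Lmo4 by 2.16 and Trat1, an adaptor that binds the T cell receptor complex, by 1.62. Tmem176a and Tmem176b were the largest falls, at -2.64 ± 0.47 and -2.74 ± 0.47, with anti-PD-1 H3 apart from its library at 19.6 and 24.3 CPM. With thinned cells Tmem176a was at -1.59.

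Cell cycle genes were called higher in 14 of 26 tested genes and lower in none, and all 26 had a fold change above 0 (median 0.72). Cenpa, a centromeric histone, stood at 212, 201, 131 and 153 CPM in the anti-PD-1 hashtags, against 68.3, 96.4, 97.1 and 81.6 CPM in the isotype hashtags, a log2 fold change of 1.02 ± 0.15 (SE), adjusted p = 5.4e-04 in edgeR, and the replication factors Mcm6 and Mcm3 rose by 0.64 and 0.67. The glycolysis and hypoxia list had 17 called rises and 1 called fall (Pdk1) among 20 genes. Pgk1 stood at 568, 526, 512 and 594 CPM in the anti-PD-1 hashtags, against 260.3, 298, 264 and 269 CPM in the isotype hashtags, a log2 fold change of 1.01 ± 0.08 (SE), adjusted p = 1.9e-06. Pkm and Ldha rose by 0.84 and 0.68.

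Receptor genes within the class followed the summed cells in part. Of 18 chemokine and homing receptors, 3 rose, among them Cxcr6 and Cx3cr1 with 1.55 and 0.58, and 8 fell, among them Ccr7, Cxcr4 and Itgae. Killer lectin-like receptors were split, 4 higher and 4 lower of 11: Klrc1, Klrd1, Klre1 and Klrk1 rose, and Klrb1c, Klrg1, Klra1 and Klra7 fell. The Klra genes are close copies, and reads may be split between them. The signal-induced list had 7 called falls, with Fos at -1.002, and 2 called rises, Nr4a2 at 0.85 and Jund. The 12 genes with the largest rises and falls of this class kept their direction and call without any 1 hashtag.

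In the Foxp3 class fewer genes passed. Interferon-induced genes, GIMAP genes and glycolysis genes were among those called higher, and genes of myeloid cells and MHC class II among those called lower. The class held 75 to 165 cells per anti-PD-1 hashtag and 182 to 382 per isotype hashtag, with 402610 to 1116800 and 1539800 to 2689600 UMIs. Of 7878 genes, 98 (1.24%) passed, 55 higher (0.698%) and 43 lower (0.546%), or 50 and 61 with library totals.

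Lag3 was the largest rise and stood at 738, 568, 973 and 635 CPM in the anti-PD-1 hashtags, against 179.8, 273, 248 and 395 CPM in the isotype hashtags, a log2 fold change of 1.39 ± 0.19 (SE), adjusted p = 5.7e-04 in edgeR. It was the only call among 17 genes of the checkpoint list. Pdcd1, at 273, 259, 436 and 331 CPM in the anti-PD-1 hashtags, against 228, 211, 294 and 293 CPM in the isotype hashtags, overlapped and did not pass (log2 fold change 0.33 ± 0.14, adjusted p = 0.337), and Ctla4 missed the threshold at 0.32 ± 0.08 (adjusted p = 0.0592). Nkg7 rose by 1.095 ± 0.22 (adjusted p = 0.018) and lost its call without anti-PD-1 H1, H3 or H4 or isotype H2 (adjusted p 0.0555 to 0.0923).

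Gimap7 stood at 343, 228, 266 and 314 CPM in the anti-PD-1 hashtags, against 126, 133, 144 and 133 CPM in the isotype hashtags, a log2 fold change of 1.11 ± 0.11 (SE), adjusted p = 7.7e-05, with no overlap. Gimap4 and Gimap6 rose by 0.55 ± 0.09 and 0.58 ± 0.11, and all 8 genes of the family had a fold change above 0. Of 28 tested type I interferon genes, 4 were called higher and none lower: Isg15, a ubiquitin-like protein, at 0.81 ± 0.12, Ifi27l2a at 0.64 ± 0.08, the transcription factor Irf7 at 0.61 ± 0.11 and the receptor transporter Rtp4 at 0.74 ± 0.15. Isg15 stood at 428, 414, 329 and 385 CPM in the anti-PD-1 hashtags, against 235, 189, 199 and 271 CPM in the isotype hashtags, without overlap. Among interferon gamma-induced GTPases, Tgtp1, which is nearly identical to Tgtp2, rose by 1.07 ± 0.17, and Ifi47 and Igtp by 0.58 ± 0.09 and 0.48 ± 0.10. With thinned cells Tgtp1 lost its call (0.99, adjusted p = 0.13).

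Of 20 glycolysis and hypoxia genes, 8 were called higher and none lower in the Foxp3 class. Bnip3, a hypoxia-induced mitophagy receptor, stood at 134, 136, 107 and 131 CPM in the anti-PD-1 hashtags, against 71.6, 70.4, 68.7 and 60.7 CPM in the isotype hashtags, a log2 fold change of 0.91 ± 0.11 (SE), adjusted p = 2.9e-04. Slc16a3 (MCT4), a lactate exporter, rose by 0.91 ± 0.11. Of the 22 regulatory T cell genes, which include Foxp3 itself, Izumo1r (folate receptor 4) passed with a rise of 0.79 ± 0.11 and none fell. Il2ra, at 674, 623, 809 and 793 CPM in the anti-PD-1 hashtags, against 1024, 928, 882 and 812 CPM in the isotype hashtags, did not overlap but missed the threshold (log2 fold change -0.33 ± 0.09, adjusted p = 0.1). Il7r was the 1 call of the naive and memory list at -0.49.

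Cd209a was at 0 in all 4 anti-PD-1 hashtags, against 41.6, 37.8, 18.9 and 61.8 CPM in the isotype hashtags, and Il1b, an inflammatory cytokine of myeloid cells, was at 0, 10.7, 0 and 0 CPM in the anti-PD-1 hashtags, against 87.0, 61.2, 34.3 and 70.8 CPM in the isotype hashtags. H2-Aa and Cd74 had log2 fold changes of -3.66 ± 0.60 and -1.49 ± 0.23. The cells with at least 2 myeloid marker UMIs numbered 3 and 38 in this class. Without them Cd74 had a log2 fold change of -0.15 (adjusted p = 0.704), Tmem176a lost its call (adjusted p = 0.119, beside 0.0456 with them) as it did without any 1 hashtag other than anti-PD-1 H3 or isotype H3 (adjusted p 0.0511 to 0.215), and Cd209a, Il1b and H2-Aa had too few counts to be tested. Tmem176a lost its call with thinned cells too (-0.88, adjusted p = 0.377) and where the highest tag had to be 5 times the second (adjusted p = 0.0613), while Cd74 with thinned cells was at -0.98. AA467197 (NMES1) fell by 1.23 on the log2 scale, and it lost its call without anti-PD-1 H1, H2 or H4 or isotype H2 (adjusted p 0.0502 to 0.0722).

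In the CD4 class, cytokines and chemokines of activated helper cells were higher. The class held 131 to 197 cells per anti-PD-1 hashtag and 95 to 251 per isotype hashtag. Of 6328 genes, 120 (1.9%) passed, 64 higher (1.01%) and 56 lower (0.885%). Ifng stood at 266, 293, 606 and 343 CPM in the anti-PD-1 hashtags, against 30.1, 76.4, 60.5 and 85.6 CPM in the isotype hashtags, a log2 fold change of 2.48 ± 0.26 (SE), adjusted p = 5.0e-05 in edgeR, with no overlap. Of 16 helper cytokines and lineage factors, 6 were called higher and none lower: besides Ifng these were Tbx21 (0.89), Batf (0.51), the growth factor gene Csf1 (1.23), and the type 2 cytokines Il5 (1.91) and Il13 (1.23). Il5 stood at 83.9, 134, 50.6 and 48.1 CPM in the anti-PD-1 hashtags, against 4.02, 31.7, 23.9 and 15.01 CPM in the isotype hashtags, and 10 cells held 83.4% of the 277 and 91.4% of the 140 Il5 UMIs of all T cells. It lost its call without isotype H4 (adjusted p = 0.0655).

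Ccl4 was the largest rise of the CD4 class and stood at 389, 748, 1522 and 191 CPM in the anti-PD-1 hashtags, against 8.04, 94.3, 7.96 and 90.03 CPM in the isotype hashtags, a log2 fold change of 3.58 ± 0.58 (SE), adjusted p = 0.00271. Ccl3 stood at 123, 275, 917 and 119.7 CPM in the anti-PD-1 hashtags, against 6.03, 108, 6.37 and 64.4 CPM in the isotype hashtags, a log2 fold change of 2.67 ± 0.63 (SE), adjusted p = 0.0394. Anti-PD-1 H3 was the highest hashtag for both, and without it Ccl3 had a log2 fold change of 1.61 (adjusted p = 0.156). Ccl3 also lost its call without isotype H1, H3 or H4 (adjusted p 0.0902 to 0.133), with thinned cells (0.173), by DESeq2's Wald test (0.153) and with stricter cell filters of 500 genes and 5% mitochondrial UMIs (0.05298). Klrc1 and Klrd1 rose by 1.45 ± 0.21 and 1.23 ± 0.19. Lag3 and Cd38 were the calls among 19 genes of the checkpoint list, at 1.06 ± 0.13 and 1.00 ± 0.24. Pdcd1 did not pass (0.28 ± 0.09, edgeR adjusted p = 0.121).

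In the CD4 class, 8 of 20 glycolysis and hypoxia genes rose and none fell, with Gapdh at 0.57 ± 0.05 and Pgk1 at 0.69 ± 0.09. Among the falls were Klrg1 at -1.26 ± 0.25, Fkbp5, a co-chaperone of the glucocorticoid receptor, at -1.21 ± 0.18, the keratin gene Krt83 at -1.10 ± 0.17, and Nebl, Bmyc and Phkg2 at -1.04, -0.94 and -0.93. Klrg1 lost the call without anti-PD-1 H1 or isotype H2 and Phkg2 without isotype H2 (adjusted p 0.0535 to 0.0625). Nebl lost it without anti-PD-1 H1 or H4 or isotype H1, H2 or H4 and Bmyc without any 1 hashtag other than anti-PD-1 H4 or isotype H3 (adjusted p 0.0638 to 0.148). With thinned cells all 4 lost it (adjusted p 0.0613 to 0.11), and Bmyc also under the stricter tag and cell filters and without the cells with myeloid markers (0.0607 to 0.0737). The naive and memory, cell cycle and type I interferon lists held no call in this class, among 17, 24 and 25 tested genes.

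The difference of the treatment effect between the CD8 and Foxp3 classes was tested in the same hashtags, and 379 of 8869 genes (4.27%) passed. The difference was positive, a larger anti-PD-1 over isotype ratio in the CD8 class, for 163 genes (1.84%) and negative for 216 (2.44%). With library totals 65.7% rather than 43.0% of the called genes were positive, after a shift of the median of all genes by 0.10 on the log2 scale. The checkpoint and cell cycle lists held calls mainly on the positive side, and naive and memory, GIMAP and interferon genes on the negative side.

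The checkpoint list had 10 positive calls and 1 negative call (Nt5e) among 21 genes. The positive calls were Havcr2, Ctla4, Lag3, Cd200r1 and Pdcd1, and also Rgs16, Entpd1, Nr4a2, Cd38 and Tox2. Havcr2 differed by 1.84 ± 0.24: in the CD8 class it had risen by 1.87, and in the Foxp3 class it stood at 61.5, 69.6, 102 and 72.7 CPM in the anti-PD-1 hashtags, against 67.8, 75.2, 69.2 and 77.3 CPM in the isotype hashtags, with overlap. Ctla4 and Pdcd1 differed by 0.76 ± 0.11 and 0.86 ± 0.22, and Lag3, which rose in both classes, by 0.70 ± 0.17 (adjusted p = 0.0223). Cell cycle genes had 8 positive calls and no negative one among 27, with Stmn1, a regulator of microtubules, at 0.86 ± 0.14 and Mki67 (Ki-67) at 0.97 ± 0.22. Pclaf, a PCNA-binding factor of dividing cells, differed by 1.35 ± 0.16, and the histone gene Hist1h2ap by 1.43 ± 0.16.

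The naive and memory list had 10 negative calls among 20 genes, with Klf2 at -1.68 ± 0.25. GIMAP genes had 6 negative calls among 8. Gimap6 stood at 488, 414, 451 and 427 CPM in the anti-PD-1 hashtags, against 231, 297, 307 and 343 CPM in the isotype hashtags in the Foxp3 class and at 263, 339, 292 and 270.5 CPM in the anti-PD-1 hashtags, against 281, 425, 477 and 440.4 CPM in the isotype hashtags in the CD8 class, a difference of -1.07 ± 0.13 (edgeR adjusted p = 1.9e-04). The type I interferon list had 5 negative calls and no positive one among 33, with Irf7 at -0.87 ± 0.19, and Tgtp1 differed by -1.82 ± 0.29.

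Single genes of the 6 smallest p in each direction showed opposite moves or a change in 1 class. AA467197 stood at 23.04, 22.6, 48.3 and 39.8 CPM in the anti-PD-1 hashtags, against 13.9, 14.2, 10.4 and 9.99 CPM in the isotype hashtags in the CD8 class and at 13.99, 6.74, 25.6 and 17.3 CPM in the anti-PD-1 hashtags, against 37.0, 41.4, 32.3 and 34.8 CPM in the isotype hashtags in the Foxp3 class, a difference of 2.72 ± 0.27. Tubb6, a beta-tubulin, stood at 44.7, 35.04, 45.8 and 56.6 CPM in the anti-PD-1 hashtags, against 6.95, 15.6, 5.80 and 12.7 CPM in the isotype hashtags in the CD8 class, while its Foxp3 class values spanned 51.8 to 57.6 CPM over all 8 hashtags. With thinned cells the difference for Tubb6 was 1.28 and lost its call (adjusted p = 0.219). Selenop, the selenium transport protein, stood at 21.4, 21.6, 22.9 and 17.5 CPM in the anti-PD-1 hashtags, against 106, 45.4, 55.7 and 56.6 CPM in the isotype hashtags in the CD8 class and at 132, 136, 135 and 118 CPM in the anti-PD-1 hashtags, against 99.1, 98.3, 97.9 and 112 CPM in the isotype hashtags in the Foxp3 class, a difference of -1.91 ± 0.23. The calcium-binding genes S100a4 and S100a11 differed by 0.99 and 0.81 (S100a11 by 0.52 with thinned cells), and Zfp36, Fos, Rgs10 and the ribosomal gene Rps27 by -0.92, -1.40, -0.90 and -0.61.

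**Figure D4:**
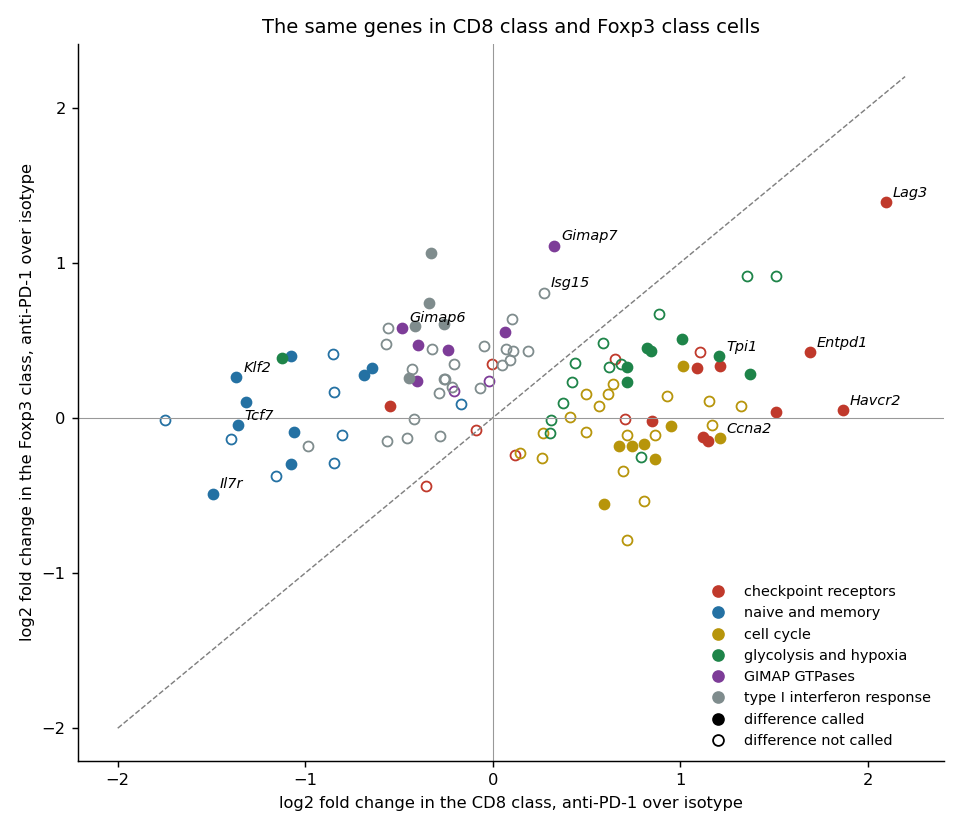
Log2 fold change of anti-PD-1 over isotype in the CD8 class (x axis) against that in the Foxp3 class (y axis) for genes of 6 lists tested in both. Each point is 1 gene, filled where the difference between classes passed an adjusted p of 0.05, and the dashed line marks equal fold changes. All 26 cell cycle genes lie below the line and all 17 naive and memory, 8 GIMAP and 28 type I interferon genes above it.

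T cell receptor sequences were read from the same cells, which gave both chains in 2545 anti-PD-1 and 2874 isotype T cells with 1 hashtag. A clone here is a set of cells with the same alpha and beta CDR3 nucleotides, CDR3 being the receptor loop that contacts the antigen. Clones served as a check on the hashtags, which the class fits treat as replicates: of 218 anti-PD-1 and 272 isotype clones with at least 2 cells, 213 and 269 lay within 1 hashtag. The largest clones are shown because 1 of them makes up a large part of a hashtag. In each, the lower-case ends are the first and last codons of the CDR3 as deposited, and capitals mark the bases between them.
anti-PD-1 clone 1, beta: tgcAGTGACAGGGACACAGAAGTCTTCttt
anti-PD-1 clone 1, alpha: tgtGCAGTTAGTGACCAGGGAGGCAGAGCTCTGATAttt
anti-PD-1 clone 2, beta: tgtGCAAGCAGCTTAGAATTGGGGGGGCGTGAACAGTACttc
anti-PD-1 clone 2, alpha: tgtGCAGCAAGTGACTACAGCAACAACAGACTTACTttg
isotype clone 1, beta: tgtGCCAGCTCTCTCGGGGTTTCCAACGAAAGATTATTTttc
isotype clone 1, alpha: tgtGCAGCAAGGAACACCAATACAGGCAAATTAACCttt
isotype clone 2, beta: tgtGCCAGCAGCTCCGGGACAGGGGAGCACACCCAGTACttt
isotype clone 2, alpha: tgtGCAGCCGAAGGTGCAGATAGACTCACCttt
The beta chains lie on mouse chromosome 6 and the alpha chains on chromosome 14.

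The first anti-PD-1 clone, with TRBV1, TRBJ1-1, TRAV7N-4 and TRAJ15, had 182 cells, all in hashtag H1, which held 788 cells with both chains. Of these, 174 were CD8 class cells and 8 were mixed. In the RNA, Trbv1 stood at 750.3 CPM on library totals in anti-PD-1 H1, 78.1, 173 and 101 CPM in H2 to H4, and 109 to 137 CPM in the isotype hashtags. The second clone, with TRBV16 and TRAV7D-2, had 41 cells, also in H1 and 35 of them CD8 class. The largest isotype clone, with TRBV12-1 and TRAV7D-2, had 27 cells in H2, 26 of them CD8 class. The second isotype clone, with TRBV5 and TRAV10, had 24 cells in H4, 22 of them Foxp3 class.

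More anti-PD-1 than isotype T cells belonged to clones of at least 2 cells of the same hashtag. The share was 50.1, 41.0, 36.2 and 34.6% in anti-PD-1 hashtags H1 to H4, against 23.5, 34.2, 25.0 and 28.3% in isotype hashtags H1 to H4. The lowest anti-PD-1 hashtag, H4, was just above the highest isotype hashtag, H2. Where the highest tag had to be 5 times the second they overlapped, with 34.2% in anti-PD-1 H4 and 34.4% in isotype H2 (exact permutation p = 0.0571). The means were 40.5 ± 6.99% and 27.7 ± 4.75% (SD, n = 4 each; two-sided exact permutation p = 0.0286, adjusted over 5 measures 0.0476). Within the CD8 class the share was 75.7, 64.0, 54.1 and 52.1%, against 29.4, 45.6, 22.8 and 33.8%, with means of 61.5 ± 10.8% and 32.9 ± 9.62% (exact permutation p = 0.0286, adjusted 0.0476).

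In the Foxp3 class the order was the other way, without passing: 20.5 ± 5.15% and 32.8 ± 6.29% (exact permutation p = 0.0571, adjusted 0.0714), with anti-PD-1 H3 at 27.3% above isotype H1 at 24.7%. In the CD4 class the means were 30.1 ± 8.05% and 32.1 ± 2.37% (exact permutation p = 0.886). The 10 largest clones of a hashtag held 37.9, 23.7, 16.1 and 15.3% of its cells in the anti-PD-1 library and 10.6, 11.5, 10.2 and 10.1% in the isotype library (exact permutation p = 0.0286, adjusted 0.0476). Hashtags with more cells can hold more clones of 2. The anti-PD-1 hashtags held 492 to 788 cells with both chains and the isotype hashtags 417 to 968. By class the numbers ran the same way as the clone shares, with 188 to 411 and 68 to 207 CD8 class cells and 55 to 130 and 146 to 283 Foxp3 class cells in anti-PD-1 and isotype hashtags, and their part in the share differences was not tested.

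**Figure D5:**
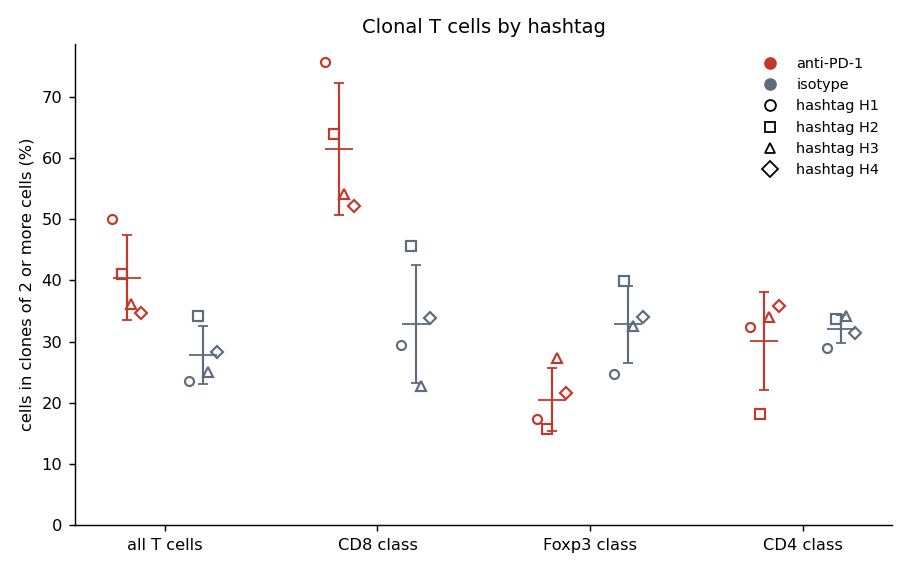
Percent of T cells with both receptor chains that belong to clones of at least 2 cells of the same hashtag (y axis), for all T cells and 3 classes (x axis). Each symbol is 1 hashtag, bars are mean and SD of 4 hashtags, anti-PD-1 in red and isotype in grey. In the CD8 class 52.1 to 75.7% of anti-PD-1 cells are clonal, against 22.8 to 45.6% of isotype cells.

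The same genes were set beside the other tumour models, where each treatment was taken as 1 sum over the Cd3-positive cells of its library. The same gene and mitochondrial filters were used, but no hashtag rule was applied and no test was made. Of the 12 largest rises in MOC1, all 12 were higher after anti-PD-1 in MOC22, with 2738 and 2746 Cd3-positive cells (median log2 ratio 2.15). All 12 were also higher in MOC1E1, with 2101 and 1055 Cd3-positive cells (median 0.84). The log2 ratio of Prf1 was 2.74 in MOC22 and 1.80 in MOC1E1, that of Lag3 2.35 and 0.85, and that of Pdcd1 2.01 and 0.74. Ifng was at 2.13 in MOC22 and 0.01 in MOC1E1. Of the 12 largest falls, 9 were lower in MOC22 and 8 in MOC1E1 (medians -0.39 and -0.44). The share of all genes higher or lower in these libraries was not worked out, so the counts of rises and falls lack a background. H2-Aa was at -3.10 in MOC22 and at 0.81 in MOC1E1, and Foxp3 at -0.17 and -0.45. The MOC1E1 sums held more myeloid RNA: H2-Aa stood at 970 and 555 CPM and Csf1r at 67.2 and 42.3 CPM (anti-PD-1 and isotype). In MOC22 the values were 5.29 and 45.6 CPM, and 0.331 and 0.655 CPM. The part of such RNA in the MOC1E1 ratios was not tested.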

How the data were processed

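Single-cell RNA, hashtag and receptor libraries of the 2 MOC1 treatments were used. The deposited matrices hold UMI counts per gene and barcode, made by the authors with Cell Ranger 3.0.2 per the submitters' processing notes, while the matrix file headers name software version 3.1.0. The notes name GRCh38 and mm10 without roles. No normalized values were used. Strand use in counting is not stated, so near-identical copies (Tcrg-C1 and Tcrg-C2, Tgtp1 and Tgtp2, the Klra genes) and overlapping genes are uncertain.

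Barcodes were filtered as the report states, each hashtag was cut by an Otsu threshold on its log10 count, and cells with several hashtags were left out as doublets. Counts were summed per hashtag over all T cells and over each class (from full counts; thinned counts served for the class shares), for sums of at least 20 cells. Each comparison was fitted over all genes with edgeR 4.0.16 (filterByExpr, TMM, glmQLFit and glmQLFTest, R 4.3.3), with Benjamini-Hochberg adjusted p-values over all genes tested. SEs belong to the fitted log2 fold changes. The CD8 against Foxp3 comparison used the 16 class sums with hashtag as a term. With 1 library per treatment, the hashtags are replicates within a library. The sums held 3951652 to 8425743 UMIs over all T cells and 402610 to 3936100 in the classes tested, so the classes are measured less precisely. Shares were compared by two-sided exact permutation tests over all splits of the hashtags (numpy 2.4.6). The fits were tested on simulated counts with known changes in 200 genes. Of the genes called, 6.80, 7.41, 10.1 and 3.70% were false for all T cells and the CD8, Foxp3 and CD4 classes. For the difference between classes 8.45% were false. All of these shares except that of the CD4 class lay above the 0.05 that the adjusted p aims at. The simulation changed far fewer genes than the 2273 called in all T cells. Of the 2-fold changes, 93, 76, 70 and 82% were recovered in the same order, and 45% for the difference.

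Members and gene lists were chosen with earlier results of these data known. Genes named are the 12 largest called rises and falls (6 in each class) averaging at least 20 CPM without overlap and without receptor segments, up to 4 called members per list with the smallest p, the class genes and Pdcd1. For the difference between classes they are the 6 smallest p in each direction. Other list members were named after their values were seen. Alternatives were DESeq2 1.42.0 (Wald test and size factors), library totals, no filter on low counts, other hashtag, cell and T cell rules, thinning, removal of receptor segments, other class and clone rules, a hashtag block and leaving out each hashtag. Leaving out cells with at least 2 UMIs of 17 myeloid markers was added after seeing the data. Log2 ratios in the other models used 0.5 added UMIs. No column lacked a sample. Results for some genes are not reported here.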

Additional observations from a re-analysis of the deposited data

Results flagged for a closer look

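A hashtag was set apart where its gap to the nearest hashtag of its library passed Dixon's 95% critical value for 4 values. That held in 17 of the 260 groups of 4 hashtags examined, and chance alone gives about 1 in 20, or 13. In the sums of all T cells, Adgrg1 in isotype H3 (9.99 CPM), H2-Ab1 in anti-PD-1 H2 (44.6 CPM), Nebl in isotype H2 (33.9 CPM), Cd209a in anti-PD-1 H2 (4.78 CPM) and Csf1r in isotype H2 (3.49 CPM) stood apart. So did the regulatory genes Foxp3 (182 CPM) and Lrrc32 (49.9 CPM) in anti-PD-1 H4, Slamf7 in anti-PD-1 H4 (47.9 CPM), Pdcd1 (248 CPM) and Hspd1 (137 CPM) in isotype H1, and Slfn5 in isotype H3 (14.7 CPM). In the CD8 class, Tmem176b (24.3 CPM) and Tmem176a (19.6 CPM) stood apart in anti-PD-1 H3, Gzma in isotype H2 (313 CPM) and AC163354.1 in isotype H4 (12.98 CPM). In the Foxp3 class, anti-PD-1 H2 stood apart for Il1b (10.7 CPM) and H2-Aa (62.5 CPM). The cause was not tested in any of them.

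The treatment effect differed between the CD8 and Foxp3 classes, by the test of the difference itself, in 12 named genes. The log2 fold change in the CD8 class minus that in the Foxp3 class was 2.72 for AA467197, 1.43 for Hist1h2ap, 1.35 for Pclaf, 0.99 for S100a4, 0.81 for S100a11 and 2.05 for Tubb6, which with each cell thinned to 2000 UMIs was 1.28 and did not pass (adjusted p = 0.219). It was -0.92 for Zfp36, -1.91 for Selenop, -1.07 for Gimap6, -1.40 for Fos, -0.61 for Rps27 and -0.90 for Rgs10.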

How the results depend on the processing

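The alternatives were followed gene by gene for the genes named by rule, 86 in all T cells and 12 in each class and in the difference. Among these no log2 fold change turned its direction, and the calls lost when 1 hashtag was left out are given with each gene. Other calls in the report were not followed this way. Among them are Isg15 and Gimap4 in the Foxp3 class, Lag3 and Il13 in the CD4 class, and Lag3 and Havcr2 in the CD8 class. Thinning each cell to 2000 UMIs left 902 calls in all T cells (439 higher, 463 lower), 497 in the CD8 class and 112 in the difference between classes. With library totals 689 genes were higher in all T cells. Without a filter on low counts there were 320 calls in the Foxp3 class, 341 in the CD4 class and 591 in the difference, and DESeq2's Wald test gave 237 for the difference. The Trdc share difference was 0.149 points without thinning, against -0.0486 points, and clones differed by 11.1 points (exact permutation p = 0.0571) where the highest tag had to be 5 times the second. The cause was not tested.

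Leaving out 1 hashtag gave 1495 calls (isotype H2 left out) to 2338 in all T cells (753 to 1131 higher, 742 to 1207 lower), and 977 (isotype H4) to 1651 in the CD8 class. The Foxp3 class gave 48 to 128, with 48 without isotype H2, 49 without anti-PD-1 H1 and 55 without anti-PD-1 H4. The CD4 class gave 50 to 152, with 50, 73 and 71 without anti-PD-1 H1, H3 and H4 and 59 and 55 without isotype H2 and H4. The difference gave 197 (anti-PD-1 H1) to 350, with 234 and 249 without isotype H2 and H4. Share differences spanned 19.7 to 26.8 points for the CD8 class, -14.0 to -11.1 for Foxp3, -0.945 (anti-PD-1 H4 left out) to 1.53 for CD4, -0.289 to 0.168 for Trdc, -1.21 to -0.374 for mixed and -11.0 to -9.28 for the rest. Clones spanned 9.53 to 14.9 points.

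Hashtag names did not pair the libraries (same-name correlations 0.055, 0.089, -0.037 and 0.011). With the hashtag name as a replicate block, 1793, 1259, 82 and 129 genes were called in all T cells and the CD8, Foxp3 and CD4 classes.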
